A study of Mus musculus with 4 samples.

Results

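The Hox cluster genes were taken as every protein-coding gene of the mm9 mouse annotation (GENCODE vM1) whose name is Hoxa, Hoxb, Hoxc or Hoxd followed by digits. This rule found 39 genes, held in 40 annotation entries because Hoxa3 has 2, among 22367 protein-coding gene entries. Of the 39 genes, 11 lie in the Hoxa cluster on chromosome 6, 10 in Hoxb on chromosome 11, 9 in Hoxc on chromosome 15 and 9 in Hoxd on chromosome 2. The measure was the overlap of each gene with regions enriched for trimethylated lysine 36 of histone H3 (H3K36me3) in ChIP-seq of male germ cells. It compared C57BL/6J mice (B6) with the knock-in strain B6.Cg-Prdm9<tm1.1Kpgn>/Kpgn (KI), both taken at 14 dpp (days post-partum). KI shares the B6 background, and its Prdm9 carries the last exon of the Prdm9 Cst allele, which encodes the zinc fingers that bind DNA. Each strain has 1 list of broad regions and 1 list of narrow (refined) peaks. The authors called them against 1 input, labelled 15 dpp, after merging 2 biological replicates. The values below therefore have no replicate error, and no test between the strains was possible.

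Hox genes encode homeodomain transcription factors that give cells of the embryo their position along the body axis. They stand in 4 clusters, in which the low-numbered (anterior) genes lie at the 3′ end and the high-numbered (posterior) genes at the 5′ end of the shared direction of transcription. Outside the segments and stages that use them they are a textbook target of Polycomb repression, with Polycomb complex PRC2 placing H3K27me3 over whole clusters. H3K36me3 is placed over the bodies of transcribed genes by SETD2 and, in male meiosis, also beside recombination hotspots by PRDM9.

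The sequence shown first is that of the refined KI peak at the 3′ end of Hoxb3 (mm9, plus strand, chr11:96208079-96208319), with its CpG in capitals. It is the refined peak that lies closest to a Hox gene in KI, and it holds 1 CpG.
KI peak at Hoxb3: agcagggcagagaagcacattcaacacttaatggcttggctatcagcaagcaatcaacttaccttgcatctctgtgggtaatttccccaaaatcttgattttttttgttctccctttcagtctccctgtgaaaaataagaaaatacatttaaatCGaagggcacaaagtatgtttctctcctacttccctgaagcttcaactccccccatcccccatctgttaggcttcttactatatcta

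Windows of 250 bp upstream of 3 Hox genes are shown for contrast, read in the direction of transcription with CpGs in capitals. The Hoxa4 window (mm9, minus strand, chr6:52141753-52142002) has the most CpGs of the 39 upstream windows, 41, and the Hoxa2 window (mm9, minus strand, chr6:52115413-52115662) the fewest, 2. The Hoxb3 window (mm9, plus strand, chr11:96184390-96184639) has 9. Hoxa4 and Hoxa2 were chosen for printing after these counts were seen.
Hoxa4 upstream: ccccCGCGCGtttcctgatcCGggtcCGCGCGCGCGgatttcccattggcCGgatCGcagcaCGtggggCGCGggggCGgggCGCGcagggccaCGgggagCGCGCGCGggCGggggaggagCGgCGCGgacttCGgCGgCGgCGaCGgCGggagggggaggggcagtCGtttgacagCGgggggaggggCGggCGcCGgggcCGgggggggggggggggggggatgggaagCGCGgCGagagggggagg
Hoxa2 upstream: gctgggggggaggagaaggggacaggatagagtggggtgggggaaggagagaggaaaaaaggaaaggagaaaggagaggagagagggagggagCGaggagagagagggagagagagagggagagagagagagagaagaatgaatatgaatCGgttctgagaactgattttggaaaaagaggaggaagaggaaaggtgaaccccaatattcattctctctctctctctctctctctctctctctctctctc
Hoxb3 upstream: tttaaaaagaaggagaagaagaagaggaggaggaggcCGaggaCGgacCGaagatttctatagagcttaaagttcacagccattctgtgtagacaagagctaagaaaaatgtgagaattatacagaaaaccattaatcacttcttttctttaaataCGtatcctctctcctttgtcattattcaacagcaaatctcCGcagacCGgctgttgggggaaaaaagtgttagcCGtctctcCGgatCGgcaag

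The broad regions covered almost none of the Hox genes. In B6, broad regions took up at least 50% of the length of 0 of 39 Hox genes, whereas 43.0% of all protein-coding genes passed that limit. In KI, 0 of 39 passed, beside 41.2% of all protein-coding genes. For 0 of 39 genes the Wilson 95% interval reaches up to 8.97%, and this interval covers the number of genes only, which lie in 4 clusters and are not independent. Among all protein-coding genes, 39.9% passed the limit in both strains.

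Contact of any length was as rare. No Hox gene had a base in a B6 broad region, compared with 60.7% of all protein-coding genes. In KI, 1 Hox gene did, against 62.2% of all protein-coding genes, and that gene was Hoxb3. A refined peak overlapped 0 of 39 Hox genes in B6 and 0 in KI, where 52.7% and 54.9% of all protein-coding genes had one. The 5′ end of 0 Hox genes lay in a broad region of either strain, and this was infrequent for all genes too, at 5.87% in B6 and 6.10% in KI. In total 38 of 39 Hox genes had no base in a broad region and no refined peak in either strain, which held for 34.0% of all protein-coding genes.

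Hox genes are short, and a short gene offers less length for a region to meet. Their lengths ran from 1853 bp for Hoxc12 to 49981 bp for Hoxa3, with a median of 4.06 kb against 15.4 kb over all protein-coding genes. Hoxc12 is shorter than the narrowest broad region, 2000 bp in both lists. Among the 14397 protein-coding genes within the length range of the Hox genes, 48.8% in B6 and 47.3% in KI passed the limit of 50%, and 32.0% had no region or peak in either strain. That range is not a match in length, since these genes had a median of 13.2 kb and were mostly longer than the Hox genes. The longest Hox genes, Hoxa3, Hoxd3 (36.3 kb) and Hoxb3 (23.4 kb), all of paralog group 3, had 0% of their length in B6 broad regions. In KI, Hoxa3 and Hoxd3 had 0% and Hoxb3 had 4.28%.

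Their sequence composition was likewise set beside that of other genes, since H3K36me3 follows transcription and many transcribed genes start in CpG islands. The ratio of observed to expected CpGs in the 250 bp upstream of a Hox 5′ end ranged from 0.172 to 1.15, with a median of 0.641, and the median over all protein-coding genes was 0.496. A ratio of at least 0.6 was found for 22 of 39 Hox genes (56.4%) and for 42.0% of all protein-coding genes. It was found for 7 of the 11 Hoxa genes, 5 of the 10 Hoxb genes, 7 of the 9 Hoxc genes and 3 of the 9 Hoxd genes. Of the 9389 protein-coding genes with such a CpG-rich window, 70.7% in B6 and 68.3% in KI passed the limit of 50%, and 11.1% had no region or peak in either strain. The 22 CpG-rich Hox genes had no gene past 50% in either strain. The CpG ratio over the whole gene was higher for Hox genes than for most genes, with medians of 0.516 and 0.233, and their median GC content was 52.1% against 45.6%. Of the 10044 protein-coding genes in the GC range of the Hox genes, 42.1% in B6 and 40.7% in KI passed the limit.

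**Figure D1:**
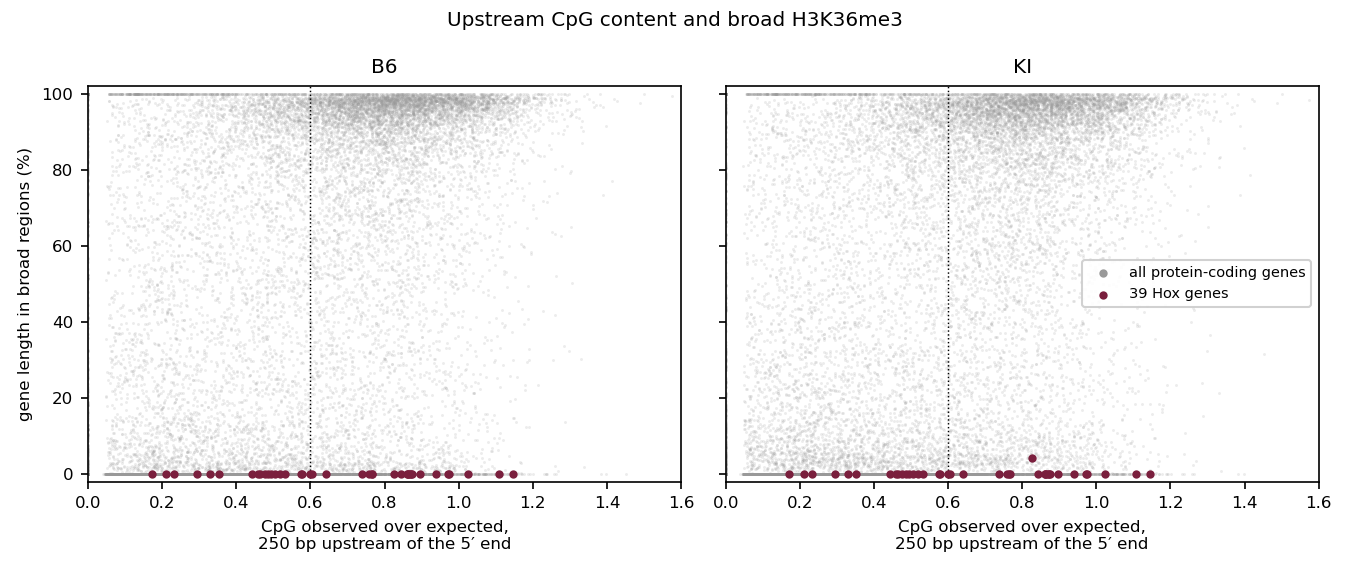
Share of each gene's length in broad H3K36me3 regions (y axis, percent) against the ratio of observed to expected CpGs in the 250 bp upstream of its 5′ end (x axis), for B6 (left) and KI (right). Each grey point is 1 of the protein-coding genes, each dark point 1 of the 39 Hox genes, and the dotted line marks a ratio of 0.6. The Hox genes span ratios from 0.172 to 1.15 and lie at 0%, except Hoxb3 at 4.28% in KI.

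The same pattern held when each cluster was taken as a block of sequence. The core of a cluster, from the first to the last base of its Hox genes, was 106 kb long for Hoxa, 174 kb for Hoxb, 116 kb for Hoxc and 96.8 kb for Hoxd, 492 kb together. In B6 these cores held 0 kb of broad regions and 0 refined peaks. In KI they held 2.5 kb of broad regions, 0.508% of their length, and 1 refined peak, all at Hoxb3. Broad regions took up 17.4% of the assembled genome in B6 and 16.6% in KI, and 38.6% and 35.5% of the joined length of protein-coding genes.

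The authors used reads with a single match in the genome, and the sequence was therefore measured by the share of 31-base words that occur once in mm9. In the cores 96.9% of the words occurred once, from 94.0% in Hoxb to 99.0% in Hoxa. The share was 92.2% in the flanks. The cores hold 0 unknown bases. The part of uniqueness in the values of the cores was not tested.

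The core of Hoxb contained the KI region that touched a Hox gene. This broad region (mm9 chr11:96207001-96209500) is 2500 bp long and covers the last 999 bp of Hoxb3, all of them exonic, 22.4 kb from its 5′ end. It runs on for 1501 bp past the annotated end of Hoxb3. Of its bases, 2109 lie in exons of Hoxb3os, a non-coding gene transcribed from the opposite strand, of which the region covers 27.1%. The refined peak in it, the KI sequence printed above, is 241 bp long and begins 80 bp past the end of Hoxb3, and 179 of its bases lie in exons of Hoxb3os. ChIP-seq does not separate the strands, so the region cannot be assigned to Hoxb3 or to Hoxb3os. The next Hox gene along the cluster, Hoxb2, starts 3.45 kb beyond the region and had 0% of its length in broad regions of either strain. B6 had no region within 100 kb of the Hoxb core. Across the genome 5.33% of all protein-coding genes touched a broad region in KI and none in B6, and 3.79% touched one in B6 and none in KI. For Hox genes the counts were 1 of 39 (2.56%) and 0 of 39.

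The closest B6 region to a Hox gene lay outside the core. It is a broad region of 2000 bp that ends 3.53 kb before the 5′ end of Hoxc13, the most posterior gene of its cluster, in sequence with no annotated gene. No KI region met it. In KI the nearest broad region to the 5′ end of Hoxc13 was 149 kb away.

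The distance from each 5′ end to the nearest broad region was long for most members. Over the 39 Hox genes its median was 86.1 kb in B6 (range 3.53 to 209 kb) and 107 kb in KI (3.45 to 167 kb), whereas over all protein-coding genes the medians were 4.46 kb and 4.27 kb. For the Hoxa genes the medians were 71.9 kb in B6 and 137 kb in KI, and for the Hoxc genes 47.3 kb and 127 kb. For the Hoxb genes the order was the opposite, with distances of 119 to 209 kb in B6 and 3.45 to 74.2 kb in KI. The Hoxd medians were 99.0 kb in both strains. The genes of a cluster share the same few regions, so these distances are not independent values.

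Genes at the ends of the clusters show the same spread. Hoxa13, a gene of the distal limb and the urogenital tract, lay 36.6 kb from a B6 region and 98.1 kb from a KI region. Hoxb1, a hindbrain gene, was 136 kb from a B6 region and 17.6 kb from a KI region. Hoxb13, known for its role in the prostate and the tail bud, was 119 kb and 20.6 kb away. Hoxc4 was 42.1 kb and 84.6 kb away. Hoxd1 was 58.0 kb from the same region in both strains, and Hoxd13, a gene of digit formation, was 82.4 kb and 83.9 kb away.

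**Figure D2:**
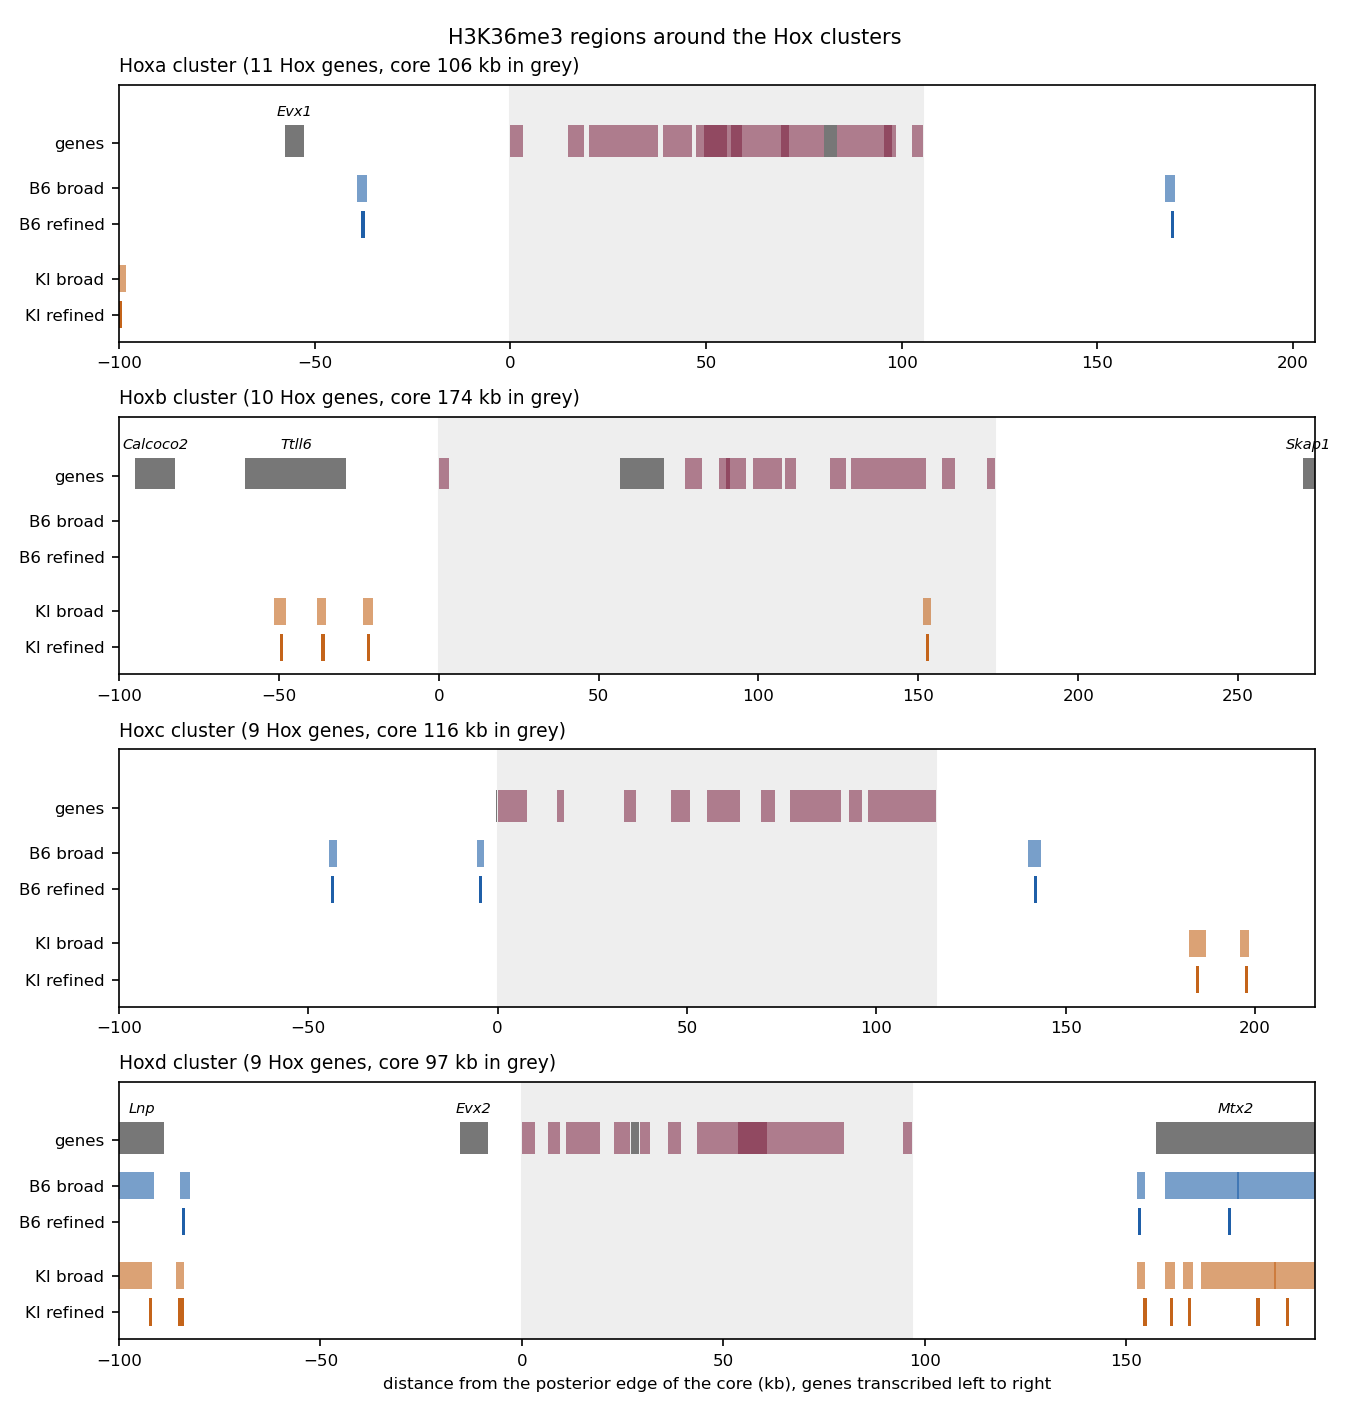
Maps of the 4 Hox clusters with 100 kb on either side, drawn to scale with distance in kb from the posterior edge of the core (x axis) and transcription of the Hox genes from left to right. Rows give the genes (Hox dark red, with overlaps darker, and other protein-coding genes grey), then the broad regions and refined peaks of B6 (blue) and KI (orange). The cores, shaded grey, are empty except for the KI region at Hoxb3, and the flanks of Hoxd hold the longest regions, over Lnp and Mtx2.

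The 100 kb on either side of the cores held more. Together these 800 kb of flanks had 7.85% of their bases in broad regions of B6, from 10 regions, and 8.03% in KI, from 15 regions. Most of this lay at Hoxd, where broad regions covered 25.2% of the flanks in B6 and 22.7% in KI. At the other clusters the values were 2.5% and 0.937% for Hoxa, 0% and 5% for Hoxb, and 3.75% and 3.5% for Hoxc.

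Most of the covered sequence in the flanks of Hoxd lay in named neighbours. Lnp, which shapes the endoplasmic reticulum and lies on the posterior side, had 94.9% of its length in broad regions of B6 and 91.6% in KI. Mtx2, a part of the mitochondrial import machinery on the anterior side, had 95.9% and 88.3%. The non-coding gene 4930445N08Rik had 20.1% and 36.6%. Evx2, a homeobox gene between Lnp and Hoxd13, had 0% in both, as did Evx1 beside Hoxa13.

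Of the neighbours of Hoxb, 1 had a sizeable share in KI. Ttll6, a tubulin polyglutamylase gene on the posterior side, had 0% in B6 and 22.1% in KI, with 0 and 3 refined peaks. Skap1, an adaptor of T cell signalling, had 1.70% and 2.20%. Calcoco2, an autophagy receptor gene, had 0% in both strains, and so did Gm17649 beside Hoxc13.

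Regions away from genes completed the flanks. At Hoxa, B6 had 1 region on each side, 36.6 kb from the core on the posterior side and 61.9 kb on the anterior side, and KI had 1 region, 98.1 kb from Hoxa13. At Hoxc, B6 had 2 regions on the posterior side, 42.5 kb and 3.53 kb from Hoxc13, and 1 on the anterior side 24.2 kb from Hoxc4. KI had 2 regions at Hoxc, both on the anterior side, 66.7 kb and 80.2 kb from Hoxc4. At Hoxb, KI had a region 20.6 kb from Hoxb13 in addition to the 2 in Ttll6.

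The strains differed in which regions they had around 3 of the clusters. Within the cores and flanks of Hoxa, Hoxb and Hoxc, B6 had 5 broad regions and KI had 7, none of them wider than 4500 bp, and 0 of the 5 and 0 of the 7 met a region of the other strain. Across the genome 45.5% of the B6 regions and 59.6% of the KI regions of at most 4500 bp met one of the other strain. Among those outside annotated genes, as were 5 of 5 and 4 of 7 here, the shares were 29.5% and 25.8%. With counts of 5 and 7 and no replicates, this difference from the genome was not tested. At Hoxd, 5 of 5 B6 and 9 of 9 KI broad regions met a region of the other strain. Of all B6 and KI regions, of any width and in or outside genes, 62.3% and 69.9% did. Most of the Hoxd regions are pieces over Lnp and Mtx2, genes covered in both strains, and are not separate cases.

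A single broad region outside genes had the same bounds in both strains (mm9 chr2:74659001-74661000), 55.8 kb from Hoxd1 on the side of Mtx2. The refined peaks inside it did not overlap. They are printed to show that they are separate pieces of sequence, with CpGs in capitals. The B6 peak (mm9, plus strand, chr2:74659413-74659590) holds 0 CpGs in 178 bp, and the middle 300 bp of the 323 bp KI peak (mm9, plus strand, chr2:74660689-74660988) hold 4.
B6 peak near Hoxd1: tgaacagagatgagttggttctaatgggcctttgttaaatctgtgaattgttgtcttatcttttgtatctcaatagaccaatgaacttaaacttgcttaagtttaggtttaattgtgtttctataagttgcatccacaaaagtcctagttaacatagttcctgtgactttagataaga
KI peak near Hoxd1: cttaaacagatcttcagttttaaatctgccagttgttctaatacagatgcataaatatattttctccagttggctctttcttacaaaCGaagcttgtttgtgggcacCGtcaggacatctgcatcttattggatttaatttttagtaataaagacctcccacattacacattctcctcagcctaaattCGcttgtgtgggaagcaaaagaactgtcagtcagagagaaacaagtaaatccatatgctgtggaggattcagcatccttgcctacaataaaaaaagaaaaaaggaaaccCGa
Of all refined peaks in the cores and flanks, 1 of 8 in B6 and 1 of 16 in KI overlapped a refined peak of the other strain, both at 4930445N08Rik. Genome-wide the shares were 17.6% and 14.2%.

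The uncovered stretch reached well beyond most cores. In B6 it ran for 204 kb at Hoxa, 426 kb at Hoxb, 144 kb at Hoxc and 235 kb at Hoxd. In KI it ran for 334 kb, 418 kb, 332 kb and 236 kb, with the region at Hoxb3 inside the Hoxb stretch. Empty stretches of such length are found elsewhere, as 848 of the 39599 stretches between B6 regions were at least as long as that at Hoxb. Genes were not counted in the shortest of the 39599 B6 stretches. Among the rest, 75 held at least 13 complete protein-coding entries, the number at both Hoxa and Hoxb. The 75 include the stretches at Hoxa and Hoxb. How many of the other long stretches hold as many genes was not computed.

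Coverage was higher, though uneven, farther from the cores. In steps of 50 kb over the 4 clusters together, broad regions took up 3.25% of the first step on the posterior side in B6 and 4.19% in KI, and 1.75% and 0% of the first step on the anterior side. From 100 to 150 kb on the posterior side they took up 38.4% in B6, in 2 of the 4 clusters, and 40.0% in KI, in all 4. The next step, from 150 to 200 kb, held 14.4% and 15.7%, below the values of the whole genome. On the anterior side 20.9% and 21.1% were reached from 50 to 100 kb, in 2 of the 4 clusters, and 49.9% and 45.1% from 150 to 200 kb. From 300 to 350 kb the anterior side fell again, to 8.64% and 7.39%. The steps after that held 21.6% and 21.5%, then 23.2% and 23.7%, then 8.71% and 12.4%.

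**Figure D3:**
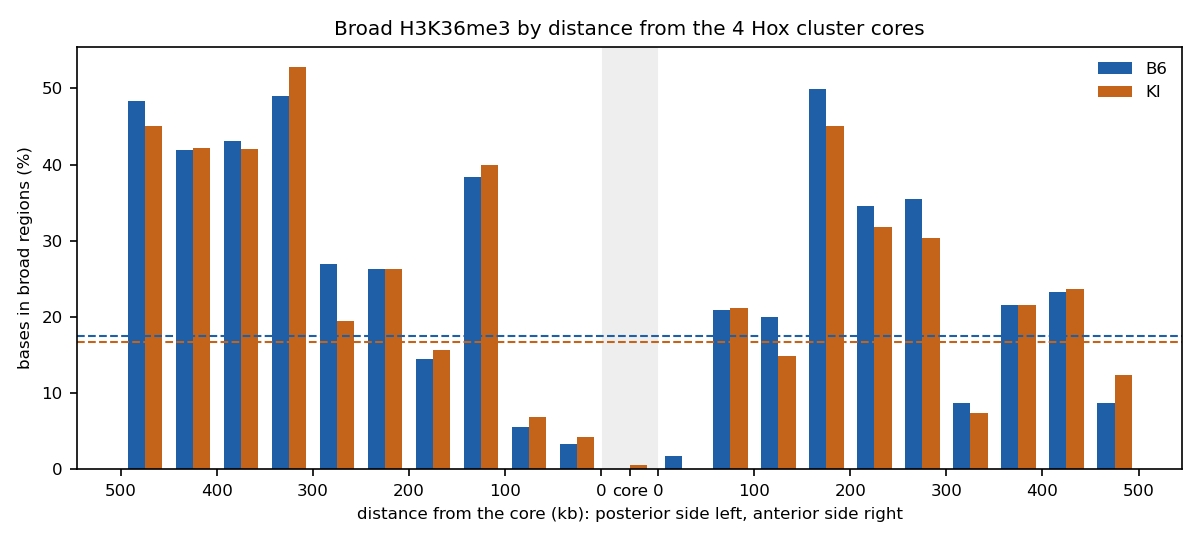
Percent of bases in broad H3K36me3 regions (y axis) in steps of 50 kb from the edges of the 4 Hox cores (x axis, kb), with the cores in the shaded middle, for B6 (blue bars) and KI (orange bars). Dashed lines mark the whole genome, 17.4% in B6 and 16.6% in KI. The cores and the first step on either side stay at or below 4.19%, and the steps from 100 to 150 kb on the posterior side reach 38.4% and 40.0%, with lower values in the step after them.

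Besides the Hox genes the cores hold 29 annotation entries of non-coding genes and pseudogenes and 3 other protein-coding genes. None of the 29 had a base in a broad region of B6, and 1 did in KI, Hoxb3os. Over all 14906 such entries of the annotation the share was 26.2% in each strain, and many entries in the cores are short or lie inside Hox genes. The uncovered ones include Hotair (Gm16258), an antisense transcript in Hoxc known for its links to PRC2, and Haglr (6720416L17Rik), which lies beside Hoxd1. Hottip (Gm15053), just past Hoxa13 in the flank, had 0% in both strains. The 3 protein-coding genes, 5730596B20Rik, Gm53 and Gm14396, had 0% in both. These transcripts overlap or adjoin the Hox genes and are not separate evidence. They were named after their values were seen.

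Of the 6 microRNA genes within the cores, 0 had a base in a broad region of either strain, where 32.8% of all 1577 annotated microRNA genes did in B6 and 31.5% in KI. They are short, and those inside Hox genes repeat the values of these genes. They fall into groups by seed, the bases 2 to 8 that pair with targets, printed in capitals in the mature 5p sequences from RefSeq. Mir10a, within the annotated bounds of Hoxb4, and Mir10b, within those of Hoxd4, share 1 seed. Mir196a-1 in Hoxb, Mir196a-2 in Hoxc and Mir196b in Hoxa share another, and their products are known to target Hoxb8. Mir615, inside Hoxc5, has its own. They are shown because each of these families has members in more than 1 cluster, apart from Mir615.
miR-10a-5p: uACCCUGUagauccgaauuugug
miR-10b-5p: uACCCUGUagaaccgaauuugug
miR-196a-5p: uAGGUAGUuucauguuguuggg
miR-196b-5p: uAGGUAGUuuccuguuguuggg
miR-615-5p: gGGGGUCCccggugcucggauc

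Genes that act with or upon Hox genes were described from lists by their coverage. Over all protein-coding genes the median share of a gene in broad regions was 21.5% in B6 and 18.4% in KI, and 43.0% and 41.2% of the genes passed 50%. Of the 9 TALE genes, the homeodomain partners with which Hox proteins bind DNA, 4 passed 50% in each strain, near the share over all genes, with medians of 9.02% and 4.69%. Pbx3 had 96.9% and 76.4% and Pknox1 had 81.9% and 84.2%, while Meis3 had 0% in both and Pknox2 had 0% and 3.32%. Meis1, a frequent Hox partner, had 9.02% and 4.69%. The 6 ParaHox and Cdx genes, the closest relatives of the Hox clusters, had none past 50%. Gsx1, Gsx2, Pdx1, Cdx1 and Cdx2 had 0% in both strains, and Cdx4 had 0% in B6 and 21.8% in KI.

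The genes of the Polycomb and trithorax complexes, which keep Hox genes off or on in the embryo, were covered. Of 11 PRC2 genes 10 passed 50% in each strain, with medians of 97.1% in B6 and 94.3% in KI. Ezh2, the methyltransferase subunit, had 94.1% and 89.5%, and Suz12 had 97.8% in both. Phf19 had 0% in both. Of 19 PRC1 genes 14 passed in each strain, with medians of 71.6% and 70.7%, from Rybp at 99.3% and 97.6% down to Cbx7 at 9.94% and 14.5% and Cbx6 at 18.5% and 10.9%. All 8 genes of the MLL and trithorax list passed in both strains, with Mll1 at 98.2% in each. Coverage of a gene by H3K36me3 is not a measure of its protein.

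The 31 other homeobox genes resembled the Hox genes, with 0 past 50% in either strain, beside 43.0% and 41.2% of all protein-coding genes. Of these 4 in B6 and 5 in KI had a base in a broad region, beside 60.7% and 62.2% of all protein-coding genes. Hhex, a liver and blood regulator, had 34.7% and 21.9%, En2 had 0% and 31.6%, Vax2 had 12.9% and 16.6%, and Barx2 had 4.45% and 12.6%. Whether Hox genes differ from these was not tested.

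**Figure D4:**
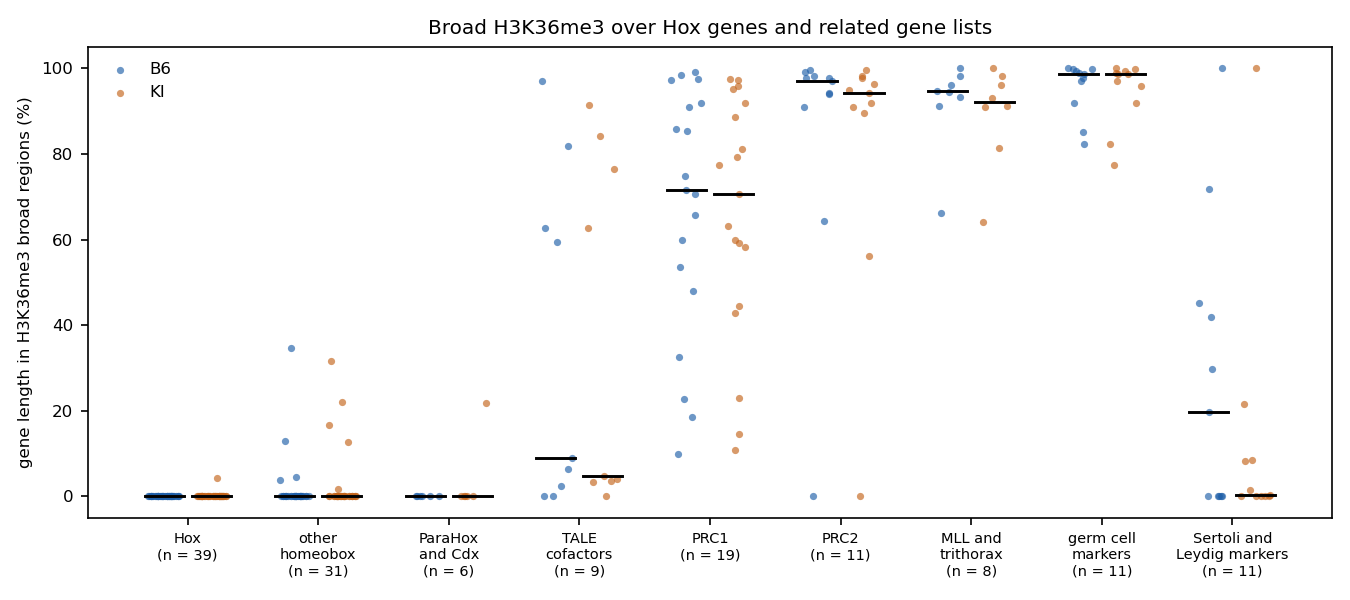
Share of each gene's length in broad H3K36me3 regions (y axis, percent) for the Hox genes and 8 gene lists (x axis), with B6 in blue and KI in orange. Each point is 1 gene, horizontal jitter has no meaning, and bars are medians. Hox, other homeobox and ParaHox genes have medians of 0%, whereas PRC2 genes have 97.1% in B6 and 94.3% in KI and germ cell markers 98.6% in both.

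Marker genes were used to check the cell type. All 11 germ cell markers found in the annotation passed 50% in both strains, with medians of 98.6% in each and lowest values of 82.4% in B6, at Spo11, and 77.4% in KI, at Stra8. Hormad1, a protein of the meiotic chromosome axis, had 100% in both. Of 11 markers of Sertoli and Leydig cells, the somatic cells of the testis, 2 passed in B6 and 1 in KI, with medians of 19.6% and 0.333%. Wt1 had 71.7% in B6 and 8.49% in KI, Sox9 had 45.2% and 0%, and Amh had 42.0% and 0.333%. Star had 100% in both and is a neighbour of the covered gene Ash2l, and the part of Ash2l in this was not tested. Hsd3b1, Insl3 and Cyp17a1 had 0% in both. Amhr2 went the other way, with 0% and 21.6%, as did Cyp11a1, with 0% and 1.51%. The median of the somatic markers was higher in B6 than in KI, over 11 genes and 1 pooled list per strain. Their part in the Hox values was not tested, and in such bulk samples fewer cells with a mark and less of the mark per cell cannot be told apart.

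Gene-dense sequence without a called H3K36me3 region was found elsewhere in the genome as well. Of 771 tiles of 100 kb with the 5′ ends of at least 5 protein-coding genes, 17.0% held no base in a broad region of B6, 13.6% none of KI and 10.6% none of either. The median dense tile had 33.5% of its length in broad regions of B6 and 34.0% in KI. Hox genes fell in 5 of these tiles, with 34 of the 39 genes, of which 3 were empty in B6, 5 in KI and 3 in both. The remaining 2, both at Hoxc, held 4000 and 3500 bp of B6 regions. The Hoxa tile, with 12 gene entries, and the Hoxd tile, with 9, were empty in both strains. The Hoxb tile, with 8, was empty in both too, but it ends before the KI region at Hoxb3. In all, 82 dense tiles were empty in both strains, and in 44 of them at least 50% of the genes were olfactory, vomeronasal or trace amine receptors. The other 38 hold the 3 Hox tiles besides clusters of keratin, protocadherin beta, histone, kallikrein and Rhox homeobox genes. Several more consist mostly or wholly of genes with Gm names. The share of words that occur once was not measured for the dense tiles, and the part of uniqueness in their values was not tested.

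**Figure D5:**
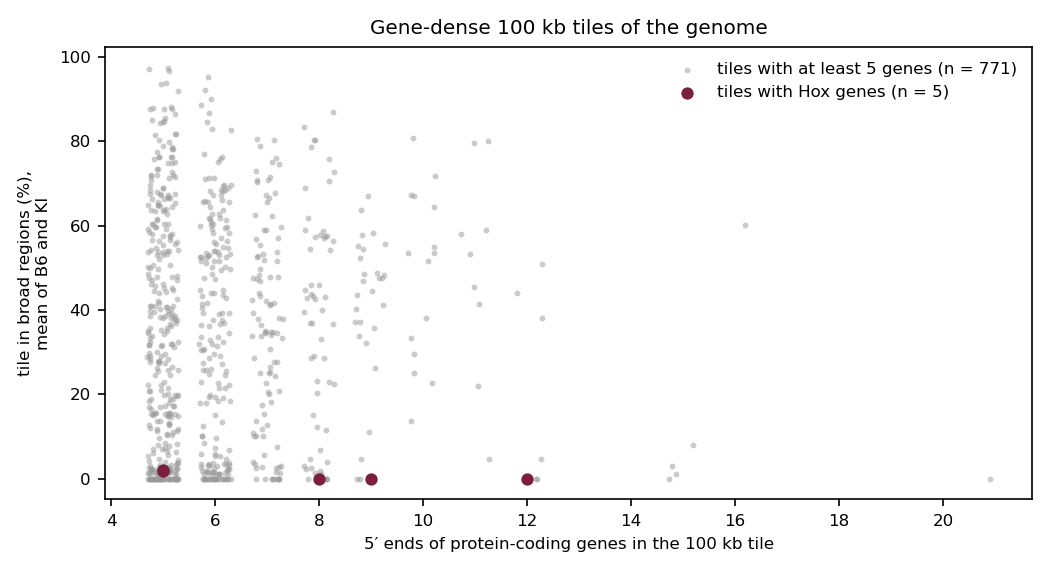
Share of each 100 kb tile in broad H3K36me3 regions, as the mean of B6 and KI (y axis, percent), against the number of 5′ ends of protein-coding genes in it (x axis), for the 771 tiles with at least 5. Grey points are tiles, jittered sideways, and dark points are the 5 tiles with Hox genes. The 3 Hox tiles with 8, 9 and 12 gene entries lie at 0%, as do other tiles, and the 2 tiles at Hoxc, with 5 entries each, lie slightly above it.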

How the data were processed

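H3K36me3 ChIP-seq was made by the authors from spermatocytes of B6 and KI mice at 14 dpp, with inputs labelled 15 dpp. The authors kept reads with a single match to mm9 (BWA, version 1.2.3 in the submitters' processing notes), merged 2 replicates per strain and called regions with ZINBA v2.0.2.03 (window 1000 bp, offset 500 bp). The deposited files give positions (chromosome, first and last base) and no count, height or score. The depth behind a region is thus unknown, and an empty stretch means that no region was called. After repeated lines were dropped, the lists held 54458 (B6) and 66566 (KI) broad regions and 58502 and 72692 refined peaks. The labels name the antibody target as H3K36me6 in 1 field and as H3K36me3 in the titles.

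Overlaps of at least 1 bp were computed with numpy 2.4.6 and pandas 2.3.3, by code tested on simulated data and against bedtools 2.31.1. Shares have Wilson 95% intervals (scipy 1.17.1). Genes came from GENCODE vM1, and miRNA sequences and current names from RefSeq. The genome in use carried no repeat mask, so words of 31 bases were counted in place of masked bases. Meiob and Rhox5 were not matched in the annotation. Values of 1 Hox gene on its own and 1 peak sequence are not reported here.

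Members and lists were chosen with earlier results of these data known. Genes named were Hox genes touched by a region, the first and last of each cluster, the coding neighbours, and up to 4 members with the highest and 4 with the lowest mean coverage in each list. Others (Hoxa2, Hoxa3, Hoxa4, Hoxb2, Hoxc12, Hoxd3, Meis1 and further list members) were named after their values were seen. Alternatives were other coverage limits, exons only, joined regions, wider genes and cores, other flank lengths, a background limited to the length range of the Hox genes and, chosen after the data were seen, backgrounds of CpG-rich genes and of genes in the GC range of the Hox genes.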

Additional observations from a re-analysis of the deposited data

How the results depend on the processing

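No Hox gene passed a limit of 25% or 75%, with exons only or with broad regions within 1000 bp joined, in either strain. The highest share of any Hox gene was 4.28%, so the limits of 25% and 75% could give no other count. Hoxb3 in KI kept its contact with 1 kb added to each gene and with a minimum overlap of 500 bp. With 1 kb added, 1 Hox gene, Hoxb3, had a refined peak in KI. With 5 kb added at either end the cores held 1.47 kb of B6 regions, at Hoxc13. The share of background genes past 50% moved from 43.0% to 48.8% (length range), 70.7% (CpG-rich) and 42.1% (GC range) in B6, and from 41.2% to 47.3% and 68.3% in KI, with 40.7% in the GC range. Flanks of 50 kb and 200 kb were 2.5% and 19.3% covered in B6 and 2.09% and 18.5% in KI, in place of 7.85% and 8.03%. Refined peaks per Mb of cores and flanks, 6.19 in B6 and 12.4 in KI, were 17.2 in B6 with 200 kb and 5.61 and 24.9 in KI with 50 and 200 kb. The assembled genome had 22.9 per Mb in B6 and 28.4 in KI.

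No paired analysis was possible because each strain has 1 pooled list, with no replicates to leave out. Without scores or reads, a weak signal below the call of ZINBA over the Hox genes was not detectable. The KI list holds more regions than the B6 list. The paper also reports more aligned reads for KI than for B6, in the merged ChIP and in the input. The part of depth in this was not tested.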
